A study of Mus musculus with 9 samples.

Results

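Small nuclear, small nucleolar and small Cajal body RNA genes were followed in RNA of mouse substantia nigra, the midbrain region that holds dopaminergic neurons. The 28 genes described here were chosen by their read counts: they are the genes annotated as snoRNA, snRNA or scaRNA whose counts, summed over the 9 libraries, reached 100. They are 16 of 1507 snoRNA genes, 9 of 1383 snRNA genes and 3 of 51 scaRNA genes, so 28 of 2941 genes of these 3 types and of 55450 genes in all. Of the 2941 genes, 1533 had no count in any library. The set was picked for comparison of the control libraries with those of the DAT group, in which the share of small RNA was taken to be higher. Differences of these genes that involve DAT are therefore given as a description. Where the number past the threshold of the fit is printed for such a difference, it stands beside the share over all genes and nothing is read from it.

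The study examined nigral tissue dissected 5 weeks after lentiviral vectors were injected into the substantia nigra on both sides, in male mice whose age its text gives as 8 weeks and its methods as 9 weeks. Every vector carried a Cre-dependent cassette, so that only cells of the driver line's type should express it, while the RNA came from the whole dissected tissue. The CTR libraries came from CX3CR1-CreERT2 mice, whose Cre works in microglia after tamoxifen, with a vector for GFP, a destabilized form according to the methods. The CX3 libraries came from the same driver line and also received tamoxifen. The DAT libraries came from DAT-Cre mice, whose Cre works in dopaminergic neurons and needs no tamoxifen. Each group has 3 libraries, A to C. CTR differs from DAT in driver line and tamoxifen as well as in vector, and these cannot be told apart. The labels do not say how many animals gave a library, so p-values measure the spread between these libraries, which may be technical.

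Small nucleolar RNAs guide chemical modification of other RNAs. Those with C and D boxes direct methylation of the ribose, and those with H and ACA boxes direct conversion of uridine to pseudouridine, mostly in ribosomal RNA. Small Cajal body RNAs do the same to the RNAs of the spliceosome, and small nuclear RNAs are the core of the spliceosome itself, apart from U7, which serves the trimming of histone mRNA ends. In mammals most small nucleolar RNAs are cut from introns of host genes after splicing, and neurons are rich in those of the imprinted host genes Snhg14 and Rian. Mature RNAs of these classes carry no poly(A) tail.

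The study's methods name a stranded mRNA kit and reads of 76 bases, while its results speak of total RNA-seq. The 28 genes span 56 to 414 bases, with a median of 107. No base of any of them lies in an exon of another gene in GENCODE M21. A read from an intron of a host transcript that has not been spliced counts on the small RNA gene it crosses, so host RNA and mature small RNA cannot be told apart here. Despite the stranded kit named, reads fell on both strands alike. The reverse strand held 49.8% to 49.9% of strand-specific counts over all genes, and 43.0% to 54.8% over the 28 genes. RNA from a gene on the opposite strand is therefore counted as well.

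The 9 genes typed as snRNA do not include the genes named for the spliceosomal RNAs. Gm27343 was 79.4% identical to the U7 gene Rnu7, and Gm24409 65.9% identical to the U1 gene Rnu1a1. The 11 snRNA genes that carry names in the annotation had 0 to 9 counts each over all 9 libraries, and 5 of them had none.

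Among the snoRNA genes, the box motifs were searched on the sense strand, the C box as TGATGA in the first 20 bases and the D box as CTGA in the last 20. The ACA box was taken as ACA 3 bases before the end, and the H box as ANANNA at least 40 bases from either end. The C and D pair was present in 4 of the 16 snoRNA genes and in 20.5% of all 1507, and the H and ACA pair in 5 of 16 and in 15.4% of all. Snord104 (chr11:106500993-106501062, plus strand, GRCm38), the most counted snoRNA gene, and DQ267102 (chr12:109656345-109656416, plus strand), among the lowest in DAT, hold the C and D pair. Snora31 (chr14:75847905-75848034, plus strand) and Gm24166 (chr9:44736813-44736947, minus strand), which lay at opposite ends in DAT, hold the H and ACA pair. Capitals mark the boxes, and the sequences are those of the GENCODE M21 transcripts.
Snord104: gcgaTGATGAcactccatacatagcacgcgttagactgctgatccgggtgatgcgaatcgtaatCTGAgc
DQ267102: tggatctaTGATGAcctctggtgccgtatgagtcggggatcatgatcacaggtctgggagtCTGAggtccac
Snora31: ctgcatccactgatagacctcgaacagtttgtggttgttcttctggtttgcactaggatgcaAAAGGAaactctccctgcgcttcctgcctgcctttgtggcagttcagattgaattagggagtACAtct
Gm24166: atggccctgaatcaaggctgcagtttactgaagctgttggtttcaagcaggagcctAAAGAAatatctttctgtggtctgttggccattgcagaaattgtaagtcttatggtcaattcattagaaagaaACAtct
The scaRNA gene Gm22009 also holds the C and D pair, which is present in 9.80% of the 51 scaRNA genes. For the other genes, no match says only that these letters are not in these windows.

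Near-identical copies also bear on the counts, since reads that map to several places are not counted on any gene. Gm24598 was 97.3% identical to Gm24895, Gm24166 95.6% to Gm22806 and Gm22270 94.7% to Gm26387, and Gm25328 had 58 other genes of the 3 types at 90% identity or more. Gm22753, Snora17, Gm25596, Gm23119 and Gm27343 had 8, 4, 3, 1 and 1 such genes. Counts of all 9 are uncertain for that reason.

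The libraries held 21592817 to 39475428 counts on genes, and the 28 genes took 314 to 972 of them. A single gene had 1 to 113 counts in a library, with a median of 18.5. Pairs of libraries were compared over those of the 28 genes with at least 20 counts in the pair. Pairs of control libraries, over 25 or 26 genes, differed by 0.886 to 1.25 times the variance of random sampling, which is close to counting error alone. The pairs differed by 1.14 to 2.06 times that variance in CX3, over all 28 genes. In DAT they differed by 1.06 to 3.72 times, over only 12 to 17 genes. Over all genes the DAT pairs with library B reached 16.5 times (with A) and 12.1 times (with C). DAT libraries A and C differed by 2.25 times, below the CX3 pairs at 2.52 to 6.28. The unevenness of DAT thus lay in library B, which is also the shallowest.

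The share of counts on the 28 genes went against the reason for which they were picked. Per 1000000 counts on genes, written ppm, it was 26.3 ± 0.959 ppm in CTR (SD, n = 3), 24.3 ± 1.04 in CX3 and 15.6 ± 0.935 in DAT. The DAT libraries, at 14.5, 16.1 and 16.2 ppm, all lay below the lowest CX3 library at 23.4, while CTR and CX3 met at 25.4. The exact (Clopper-Pearson) 95% interval of the shallowest DAT library was 13.0 to 16.2 ppm, which covers counting error only. All 2941 genes of the 3 types together showed the same order, with 76.0 ± 0.765 ppm in CTR, 68.1 ± 3.96 in CX3 and 33.3 ± 2.27 in DAT.

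The 3 types did not share this order. The snoRNA genes among the 28 had 15.6 ± 0.377 ppm in CTR, 15.7 ± 0.630 in CX3 and 7.56 ± 0.254 in DAT. The snRNA genes had 8.10 ± 0.504 ppm in CTR, 6.58 ± 0.261 in CX3 and 4.42 ± 0.921 in DAT, with no overlap between any of the groups. The scaRNA genes had 2.59 ± 0.652 ppm in CTR, 2.04 ± 0.515 in CX3 and 3.64 ± 0.188 in DAT, so that these 3 genes were highest in DAT. All 51 scaRNA genes together were not, with 5.08 ± 0.787 ppm in CTR, 4.46 ± 0.671 in CX3 and 4.46 ± 0.132 in DAT. These shares are descriptions, and no test was made of a share over the set.

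**Figure D1:**
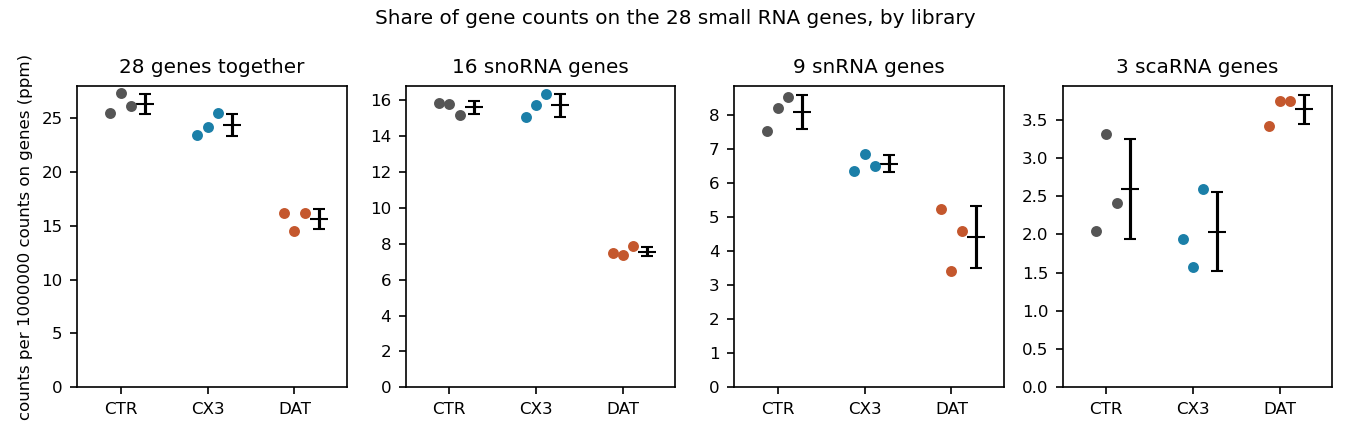
Counts on the 28 genes per 1000000 counts on genes (ppm), for all 28 and for each type, with 1 point per library and the mean ± SD of 3 libraries beside each group. DAT is lowest for the snoRNA genes, at 7.56 ppm on average, and highest for these 3 scaRNA genes, at 3.64, which the 51 scaRNA genes together do not show.

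Other types of noncoding RNA did not share 1 direction. Genes typed as miRNA took 359 ± 21.9 ppm in CTR, 447 ± 203 in CX3 and 2324 ± 287 in DAT, and genes typed as nuclear rRNA 621 ± 17.7, 1194 ± 295 and 6247 ± 804. Rn7sk, the 7SK RNA that holds back transcript elongation, took 1.39 ± 0.285 ppm in CTR, 2.09 ± 0.899 in CX3 and 26.0 ± 1.52 in DAT. Genes typed as ribozyme went the other way, at 0.354 ± 0.101 ppm in CTR, 0.219 ± 0.0732 in CX3 and 0.0169 ± 0.0293 in DAT, where 2 libraries had no count on them. In contrast, reads that fell on no gene were fewer in DAT, at 4.15% to 4.31% of reads against 7.47% to 7.61% in CTR and 6.39% to 7.73% in CX3. Their part in the lower share of the 28 genes was not tested.

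By level, the most counted of the 28 were the snRNA gene Gm25047, with 597 counts over all libraries, and the snoRNA genes Snord104 with 578 and Gm25129 with 565. Per length, Snord104 led in CTR with 27.1 CPM per kb, followed by Gm25047 with 24.8, Gm24966 with 23.1 and Snord91a with 22.2. CPM are counts per 1000000 after normalization between libraries. The long scaRNA genes Gm22009 and Scarna2 had 4.46 and 1.73 CPM per kb in CTR. At the lower edge, Snord55, Gm25777 and Gm23119 were included with summed counts of 109, 107 and 102, and Gm24494, Snord89 and Gm25604 were left out with 97, 96 and 95.

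Between CX3 and CTR, the groups that share a driver line, 4 of the 28 genes fell and 0 rose by edgeR's quasi-likelihood test with Benjamini-Hochberg adjustment over all 20892 genes tested. All 28 genes passed the filter on low counts. Of all genes tested, 16.5% fell and 14.0% rose, so the share of the 28 that fell, 14.3%, was near the background, and 5 of them had an unadjusted p under 0.05. DESeq2 called 2 of them lower and 0 higher. The median log2 difference was 0.08 over the 28 genes and 0.00 over all genes. The standard errors of the 28 ran from 0.18 to 0.40 on the log2 scale. The genes that fell were the snRNA genes Gm25047 and Gm25772, the snoRNA gene Snord91a and the scaRNA gene Gm22009.

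Gm25047 (ENSMUSG00000084616.1, chromosome X from 36363899 to 36364002) had 69, 95 and 86 counts in CTR, 62, 50 and 64 in CX3 and 88, 28 and 55 in DAT. In CPM these were 2.27, 2.61 and 2.87 in CTR and 1.61, 1.44 and 1.67 in CX3. Every CX3 library lay below every CTR library, and the DAT libraries spread over both. The log2 difference was -0.71 ± 0.18 (SE), with an edgeR adjusted p of 0.0101, and it kept its call with any 1 library left out. GENCODE M21 places the gene inside no other gene.

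Gm25772 (ENSMUSG00000089199.1, chromosome 4 from 137325559 to 137325614), the shortest of the 28 at 56 bases, had 22, 31 and 24 counts in CTR, 10, 17 and 15 in CX3 and 10, 1 and 1 in DAT. Here too, the CTR libraries stood above all CX3 libraries. It fell by 1.06 ± 0.35 on the log2 scale in CX3, with an edgeR adjusted p of 0.0346. The call was lost without CTR library A, B or C (adjusted p 0.0685, 0.114 and 0.0873) and without CX3 library A or C (0.115 and 0.0804). It lies in an intron of Cdc42, on the opposite strand, and Cdc42, which encodes a small GTPase of the cytoskeleton, rose by 0.14 ± 0.05 in the same comparison (edgeR adjusted p 0.0331).

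Snord91a (ENSMUSG00000077493.1, chromosome 11 from 74905424 to 74905516) is a C and D box snoRNA gene by name, in an intron of Tsr1, whose protein takes part in building the small ribosomal subunit. It had 2.43, 1.84 and 1.93 CPM in CTR, 1.27, 1.36 and 1.43 in CX3 and 1.62, 1.11 and 1.36 in DAT. The CTR libraries were above the other 6. It fell by 0.61 ± 0.18 in CX3, with an edgeR adjusted p of 0.0199. The adjusted p was 0.0994 without CTR library A, 0.0543 without CX3 library A and 0.0533 without CX3 library B. Gm22771, in the same host gene and 68.8% identical to Snord91a, differed by 0.35 ± 0.28 and did not pass, and Tsr1 itself differed by -0.02 ± 0.07.

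Gm22009 (ENSMUSG00000089417.1, chromosome 3 from 69085105 to 69085447) is a scaRNA gene of 343 bases in an intron of Kpna4, which encodes a nuclear import receptor. Its counts were 33, 68 and 49 in CTR, 24, 17 and 41 in CX3 and 60, 48 and 48 in DAT. In CPM, the highest CX3 library, at 1.07, lay just under the lowest CTR library, at 1.08. It fell by 1.07 ± 0.29 on the log2 scale in CX3, with an edgeR adjusted p of 0.0125, which became 0.0738 without CTR library B and 0.0580 without CX3 library B. Kpna4 differed by -0.05 ± 0.05 and did not pass.

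No gene of the 28 rose in CX3, but Gm24166 and Snord55 had the highest differences. Gm24166, an H and ACA box gene 89.1% identical to Snora2b, had 6, 10 and 7 counts in CTR and 15, 17 and 14 in CX3. Its libraries did not overlap between CTR and CX3, and its log2 difference of 0.79 ± 0.32 did not pass (edgeR adjusted p 0.0782). Snord55 had 8, 10 and 9 counts in CTR and 21, 12 and 22 in CX3, with a difference of 0.81 ± 0.40 that did not pass either (edgeR adjusted p 0.145). In all, 9 of the 28 genes had CX3 and CTR libraries that did not overlap, 5 of them lower and 4 higher in CX3, where 25.4% of all genes tested were lower without overlap and 23.9% higher. The share of the 28 was below that background in both directions.

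The rest of the snRNA genes did not pass in CX3. Gm22753, Gm25596, Gm25328, Gm24060 and Gm22573 differed by -0.52 ± 0.34, -0.31 ± 0.24, -0.11 ± 0.34, 0.07 ± 0.28 and 0.09 ± 0.33 on the log2 scale. Gm27343 differed by 0.36 ± 0.36 and Gm24409 by -0.13 ± 0.36. Of the scaRNA genes, Scarna2, which guides methylation of the U2 RNA, differed by 0.18 ± 0.29 and Gm23119 by 0.36 ± 0.38.

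**Figure D2:**
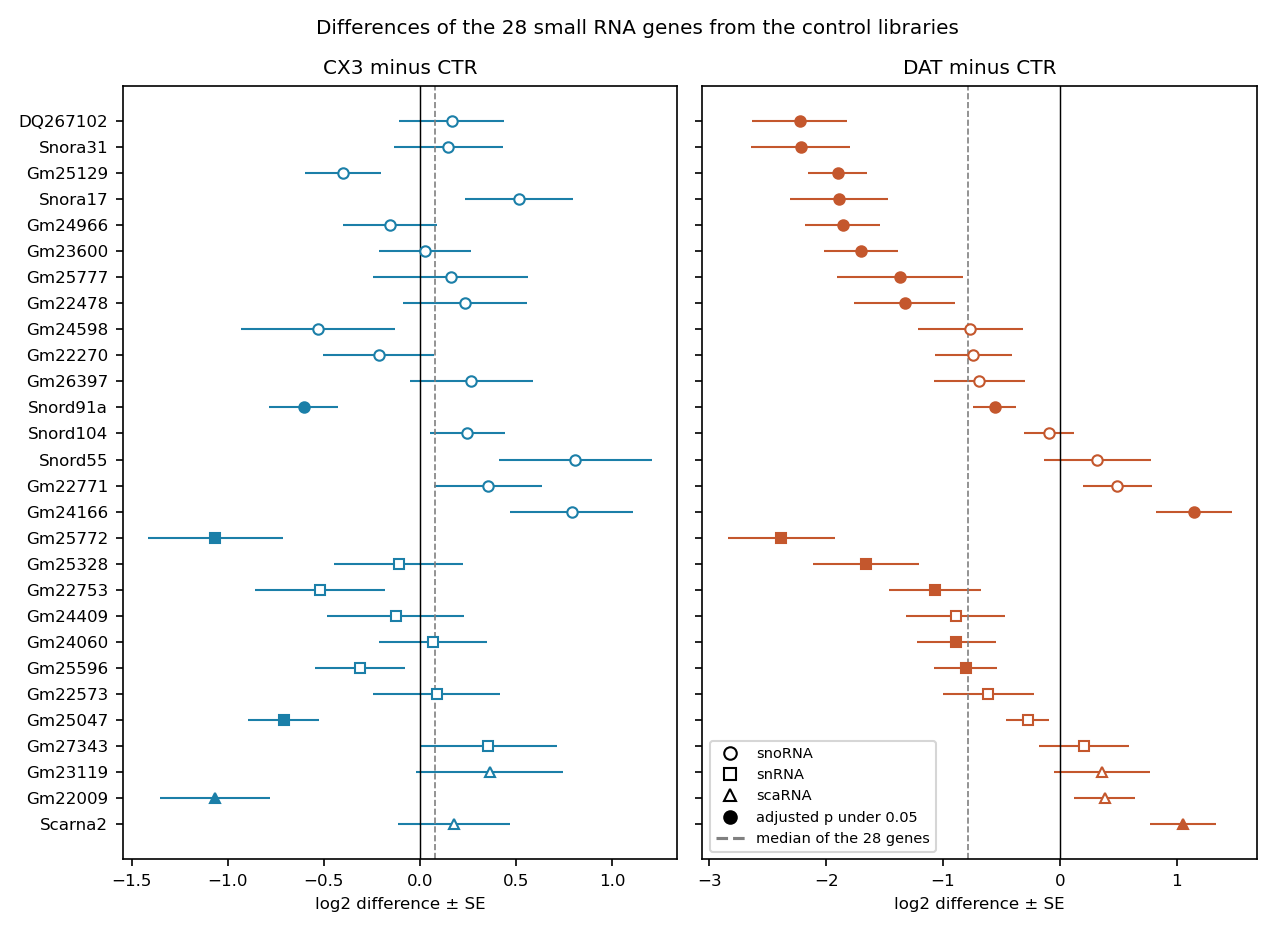
Log2 difference ± SE of each of the 28 genes from CTR, in CX3 on the left and in DAT on the right, on separate scales, with filled markers for an edgeR adjusted p under 0.05 and a dashed line at the median of the 28. In CX3 the genes lie around 0.08 with 4 filled markers, all on the lower side. In DAT the median is -0.79, with 14 filled markers on the lower side and 2 on the higher side, which are a description since the set was picked for this contrast.

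Between DAT and CTR, 14 of the 28 genes were lower and 2 higher at an edgeR adjusted p under 0.05, where 27.9% of all genes tested were lower and 32.0% higher. Since the set was picked for this contrast, nothing is read from that count. The median log2 difference was -0.79 over the 28 genes and 0.00 over all genes tested. Whatever their adjusted p, 21 of the 28 lay below 0 and 7 above. By type, 9 of 16 snoRNA genes, 5 of 9 snRNA genes and 0 of 3 scaRNA genes were lower at that threshold. The DAT and CTR libraries did not overlap for 17 genes, 15 of them lower in DAT, where 30.6% of all genes tested were lower without overlap and 33.5% higher.

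Among the snoRNA genes, DQ267102, in an intron of the imprinted gene Rian, had 16, 26 and 17 counts in CTR, 25, 22 and 29 in CX3 and 4, 1 and 5 in DAT. All DAT libraries were below all others, and the log2 difference from CTR was -2.23 ± 0.41. Gm23600, in another intron of Rian (chromosome 12 from 109643748 to 109643818), had 36, 48 and 39 counts in CTR and 19, 2 and 10 in DAT. The log2 difference was -1.71 ± 0.32. Both genes were 76.4% identical to each other, and neither passed in CX3, with differences of 0.16 ± 0.27 and 0.03 ± 0.24.

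Snora31, in an intron of Tpt1, had 17, 23 and 19 counts in CTR, 21, 29 and 25 in CX3 and 2, 4 and 4 in DAT. Snora17 (chromosome 2 from 26639190 to 26639321) had 16, 18 and 12 counts in CTR, 24, 23 and 29 in CX3 and 7, 1 and 2 in DAT. DAT was lowest for both, which are H and ACA box genes by name, with log2 differences from CTR of -2.22 ± 0.43 and -1.89 ± 0.42. Snora17 was also higher in every CX3 than in every CTR library, with a difference of 0.52 ± 0.28 that did not pass (edgeR adjusted p 0.187).

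Gm25129 (chromosome 2 from 158379534 to 158379666), in an intron of Snhg11, had the smallest SD relative to its mean in CTR. It had 2.79, 2.86 and 2.73 CPM in CTR, 1.79, 2.22 and 2.34 in CX3 and 0.521, 1.31 and 0.570 in DAT. The groups did not overlap, and the log2 difference between DAT and CTR was -1.90 ± 0.26. Gm24966 (chromosome 7 from 59344073 to 59344151), in an intron of Snhg14, had 64, 67 and 46 counts in CTR, 44, 73 and 65 in CX3 and 22, 4 and 14 in DAT, a log2 difference of -1.86 ± 0.32 from CTR.

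Of the snRNA genes, Gm25772 and Gm25328 lay furthest below CTR in DAT. Gm25772 differed from CTR by -2.38 ± 0.46. DAT library A, with 10 counts, held most of its reads in that group, where libraries B and C had 1 each. Gm25328 had 15, 19 and 14 counts in CTR and 2, 6 and 4 in DAT, a difference of -1.66 ± 0.45. In contrast, Gm25047 differed by only -0.28 ± 0.19 in DAT.

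The genes higher in DAT than in CTR at that threshold were Scarna2 and Gm24166. Scarna2 (chromosome 3 from 108554338 to 108554751) had 20, 36 and 15 counts in CTR, 25, 25 and 42 in CX3 and 65, 25 and 32 in DAT. In CPM, each DAT library, at 1.26 or more, exceeded each of the other 6, with a log2 difference from CTR of 1.06 ± 0.28. Gm24166 differed by 1.15 ± 0.33, with 20, 9 and 13 counts in DAT.

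Between DAT and CX3, 12 of the 28 genes were lower and 2 higher at the same threshold, where 27.6% of all genes tested were lower and 31.3% higher. This comparison shares its DAT libraries with the previous one. Gm22009, which fell in CX3, differed by 1.45 ± 0.29 between DAT and CX3, and by 0.38 ± 0.26 between DAT and CTR. The other gene higher at that threshold was Scarna2, with 0.88 ± 0.27.

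**Figure D3:**
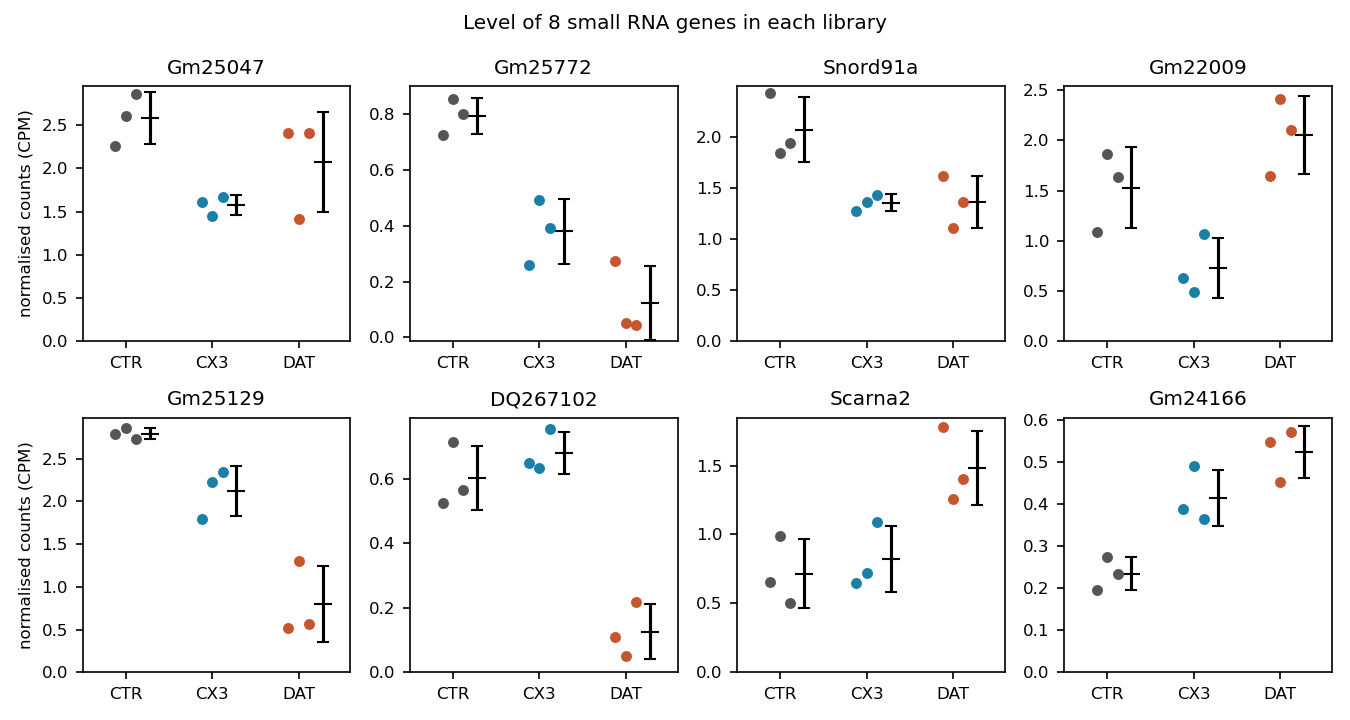
Normalised counts (CPM) of 8 of the 28 genes, with 1 point per library and the mean ± SD of 3 libraries beside each group. The upper row holds the 4 genes that fell in CX3, of which Gm22009 is highest in DAT. In the lower row, Gm25129 and DQ267102 are lowest in DAT, and Scarna2 and Gm24166 highest.

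The genes were also grouped by their place in other genes. M21 places 14 of the 28 genes in introns of a host gene on the same strand, 6 in introns of a gene on the opposite strand and 8 in neither. In DAT against CTR, 8 of the 14 genes with a same-strand host and 5 of the 6 with an opposite-strand gene were lower, as was 1 of the 8 without either, where 27.9% of all genes tested were lower, and the medians were -0.81, -1.20 and -0.18. In CX3 against CTR, 2, 1 and 1 genes of these places fell, where 16.5% of all genes tested fell, and nothing is read from these counts. No test was made between the places.

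The 11 host genes of 13 of these genes were compared in the same fit. Over all genes tested, 14.0% rose and 16.5% fell in CX3, and 27.9% were lower and 32.0% higher in DAT. In CX3 against CTR, 3 of the 11 hosts rose and 0 fell: Tomm20, a mitochondrial import receptor, by 0.37 ± 0.04 (edgeR adjusted p over all genes 1.30e-05), Cyth1 by 0.21 ± 0.04 and Rian by 0.12 ± 0.03. The small RNA genes in these hosts did not pass. Neither host of the 2 that fell in CX3, Tsr1 and Kpna4, passed. In DAT against CTR, 6 hosts were lower and 2 higher, with a median of -0.17. Over the 13 pairs in DAT against CTR, the small RNA gene lay below its host by a median of 0.71 on the log2 scale.

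Single pairs differed in this respect. Snhg11, a neuronal RNA, had 1456 ± 18.8 CPM in CTR and 371 ± 29.7 in DAT, a log2 difference of -1.97 ± 0.05, about that of Gm25129 inside it. Rian had 685 ± 1.61 CPM in CTR and 513 ± 0.753 in DAT, a difference of -0.42 ± 0.03 beside -2.23 and -1.71 for DQ267102 and Gm23600. Tpt1, which encodes the translationally controlled tumour protein, differed by -0.57 ± 0.06 beside -2.22 for Snora31. Snhg14 differed by -0.63 ± 0.08 beside -1.86 for Gm24966. Tomm20 was higher in DAT by 0.49 ± 0.04, while Gm26397 inside it differed by -0.69 ± 0.39.

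**Figure D4:**
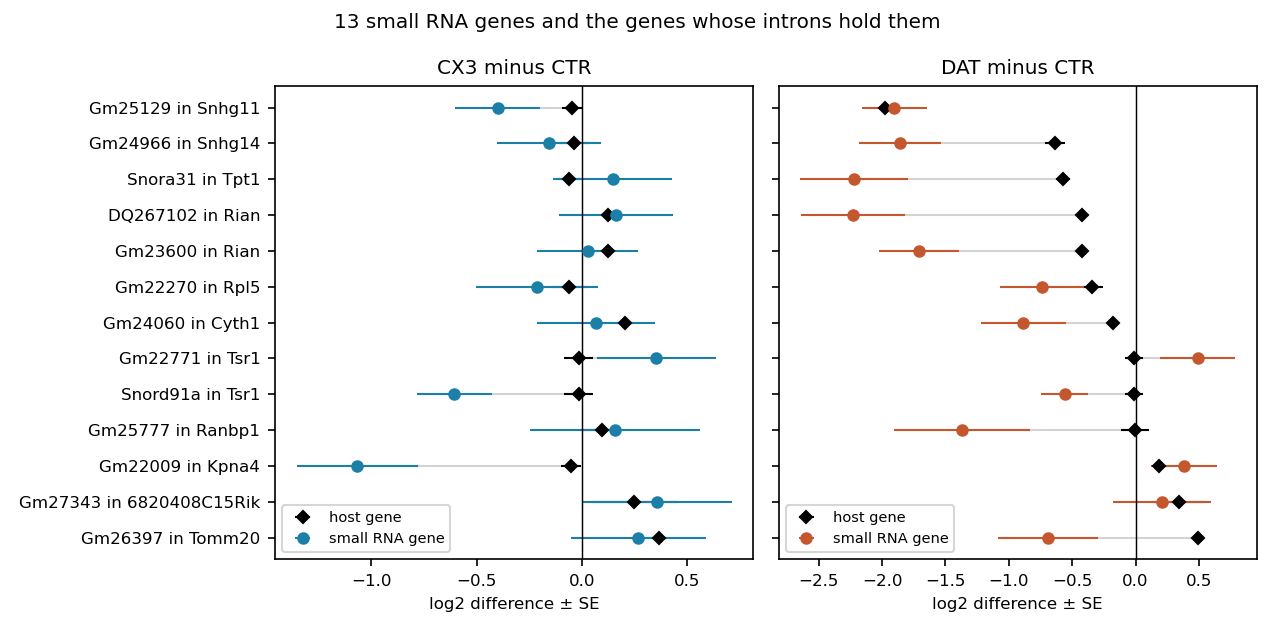
Log2 difference ± SE from CTR of 13 small RNA genes (circles) and of the host genes whose introns hold them (diamonds), in CX3 on the left and DAT on the right, on separate scales. In DAT, Gm25129 lies beside Snhg11 near -1.9, while DQ267102, Gm23600 and Snora31 lie well below Rian and Tpt1.

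Among 22 noncoding genes listed for comparison, snoRNA hosts or imprinted neighbours of such hosts, 17 were tested. They include Snhg11, Snhg14 and Rian, which are also hosts of genes among the 28. Beside them, 14.0% of all genes tested rose and 16.5% fell in CX3, and 27.9% were lower and 32.0% higher in DAT. In CX3, 4 rose and 0 fell, the largest being Snhg20, by 0.38 ± 0.10, and Snhg17, by 0.32 ± 0.09. In DAT, 16 of 17 were lower and 0 higher, with a median of -0.63, and Meg3, an imprinted neighbour of Rian, had 2935 ± 74.8 CPM in CTR and 722 ± 17.6 in DAT. The 17 genes named as members of the brain snoRNA families Snord113 to Snord116 had no count in 16 cases and none was tested.

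Genes for the proteins that carry small nucleolar RNAs were taken next, beside the same shares over all genes. None of the 4 C and D box core genes (Fbl, the methyltransferase fibrillarin, Nop56, Nop58 and Snu13) and none of the 4 H and ACA box core genes (Dkc1, the pseudouridine synthase dyskerin, Nhp2, Nop10 and Gar1) passed in CX3 against CTR by edgeR, with medians of -0.02 and 0.15, and 0 and 1 of them had an unadjusted p under 0.05. In DAT, 1 of the first group was lower and 1 of the second, Gar1, higher by 0.48 ± 0.08. Of 12 assembly factors tested, 4 fell and 1 rose in CX3, among them Nolc1, a Cajal body and nucleolar phosphoprotein, at -0.52 ± 0.05, while in DAT 7 were higher and 0 lower.

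Spliceosomal proteins and the machinery that makes small nuclear RNAs were compared in the same way. The shares over all genes were 16.5% lower and 14.0% higher in CX3, and 27.9% lower and 32.0% higher in DAT. Of 29 snRNP protein genes, 8 fell and 2 rose in CX3. Prpf8, the central scaffold of the spliceosome, fell from 164 ± 1.83 to 101 ± 3.15 CPM, and Snrnp200, the helicase that unwinds U4 from U6, fell from 114 ± 0.670 to 72.4 ± 4.38. In DAT these 2 genes were at 270 ± 36.0 and 142 ± 12.9 CPM. Of 24 genes for snRNA transcription, 11 fell and 0 rose in CX3, led by Ints3, a subunit of the Integrator complex that cuts snRNA ends, at -0.60 ± 0.05, and in DAT 9 were higher and 12 lower.

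Lists for later steps were also compared, beside the same shares over all genes. Of 23 tested genes for trimming of small RNA ends, 4 fell and 1 rose in CX3, led by Exosc10, the nuclear exosome nuclease, at -0.52 ± 0.05, and in DAT 7 were lower and 3 higher. Of 9 genes of the SMN complex, which loads snRNAs with proteins, 2 fell and 1 rose in CX3, and in DAT 1 was lower and 2 higher. Of 26 histone genes tested, whose mRNAs the U7 RNA helps to trim, 13 fell and 0 rose in CX3, and 14 were lower in DAT. Of 5 other small or ribosomal noncoding genes tested, 3 fell in CX3, among them Gm26917, from 255 ± 6.96 to 26.5 ± 5.26 CPM, and in DAT 3 were lower and 2 higher.

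Markers of cell types moved with the groups as well, and their counts stand beside the same shares over all genes. In bulk tissue, fewer cells of a type and less RNA per cell cannot be told apart. All 10 dopaminergic markers were detected, with summed levels of 957 to 966 CPM in CTR, 1166 to 1186 in CX3 and 821 to 833 in DAT, and 8 of them rose in CX3 while 4 were higher and 4 lower in DAT. Of 10 microglia markers, 9 fell in CX3 and 10 were lower in DAT, with sums of 1964 to 1988 CPM in CTR, 1382 to 1432 in CX3 and 865 to 961 in DAT. Of 8 astrocyte markers, 6 fell and 0 rose in CX3, with sums of 6025 to 6042 CPM in CTR and 3762 to 3992 in CX3, and 4 were lower and 1 higher in DAT at 3973 to 4187.

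Further cell types were checked in the same way. Of 8 choroid plexus markers, 7 rose in CX3 and 7 were higher in DAT, with sums of 48.3 to 48.9 CPM in CTR, 1485 to 1594 in CX3 and 885 to 1054 in DAT. Ttr, the transthyretin gene, reached 1457 ± 56.2 CPM in CX3, 6.18 ± 0.08 above CTR on the log2 scale. Of 10 plasma cell markers, 10 fell in CX3 and 9 were lower in DAT, with sums of 1831 to 1886 CPM in CTR, 406 to 435 in CX3 and 181 to 206 in DAT. Of 10 T cell markers, 5 fell in CX3 and 10 were lower in DAT, at 82.0 to 85.2, 67.3 to 72.4 and 22.4 to 25.9 CPM. The study reports T cell genes, Cd3e, Cd8a and Cd4 among them, as strongly raised in nigral tissue of the CX3 mice. Here these genes differed by -0.36 ± 0.13, -0.05 ± 0.07 and -0.68 ± 0.17 between CX3 and CTR. The direction was not the reported one, and the reason was not tested. Of 8 oligodendrocyte markers, 3 rose and 3 fell in CX3, and 2 were higher and 4 lower in DAT. The part of these cell types in the differences of the 28 genes was not tested.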

How the data were processed

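RNA of substantia nigra was analysed in 9 libraries, grouped by the titles and genotypes in their labels. The sequence carried by the vector of the CX3 and DAT groups, the host gene of 1 member and the sequences of snRNA genes are not reported here. The authors deposited raw counts per gene without normalization, with 3 columns by strand as STAR writes them. Their notes name Trimmomatic, STAR, featureCounts, DESeq2 and mm10, and versions are not given in the sources used here. All gene identifiers belong to GENCODE M21. Counts of both strands together were used. The members and gene lists were chosen with earlier results of these data known.

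Counts were scaled by TMM and filtered with filterByExpr, and edgeR 4.0.16 in R 4.3.3 fitted all 9 libraries with a quasi-likelihood test. Adjusted p-values cover 20892 genes, with a threshold of 0.05. CPM are counts per 1000000 after TMM, and shares (ppm) are counts per 1000000 without it. The floor of 3 counts equals 0.0779 to 0.151 CPM. Depth was 21592817 to 39475428 counts on genes, and intervals cover counting error only. The fit was tested on simulated counts. Gene symbols, introns and sequences come from M21, and sequence comparisons used edlib in Python 3.11.15. Alternatives were other scalings and filters, either strand, DESeq2 1.42.0, a replicate block, only the groups compared, and leaving out each library. Named genes are the 10 with the highest counts, those called in CX3, the 8 with the largest DAT difference without overlap, all snRNA and scaRNA genes, those beside the threshold, hosts, and up to 4 called genes per list. Gm24166, Snord55 and Gm22771 in CX3, and Gm24166 in DAT, were named after their values were seen.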

Additional observations from a re-analysis of the deposited data

How the results depend on the processing

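In CX3 against CTR, no gene of the 28 rose under any alternative run. The count of 4 that fell became 0 in forward-strand counts, where 20 of the 28 passed the filter. With DESeq2 it became 2, Gm25047 and Gm22009. With only the 2 groups compared, all 4 kept their call and Gm25129 also fell, by 0.40 (edgeR adjusted p 0.0402). The count ranged from 2 to 3 with 1 library left out, with 2 without CTR library A, CTR library B or CX3 library B. Without CX3 library A, Gm22753 also fell, at -1.03 (edgeR adjusted p 0.0389). In DAT against CTR, the 14 lower and 2 higher became 8 and 0 in reverse-strand counts, 8 and 1 in forward-strand counts and 8 and 1 with DESeq2, and 10 to 12 and 2 with 1 library left out. In DAT against CX3, the 12 lower and 2 higher became 7 and 1 in reverse-strand counts, and 8 to 12 and 1 to 3 with 1 library left out, with 1 higher without CX3 library A or DAT library A. Each strand alone holds fewer counts, and 17 or 20 of the 28 then passed the filter. The cause of the other changes was not tested.

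Library size alone in place of TMM moved the median of all genes in DAT against CTR to -0.15 and that in DAT against CX3 to -0.20, and the median of the 28 genes in DAT against CTR to -0.93. When every gene with at least 1 count was kept, or DESeq2 was used, the median of all genes was -0.49 and -0.50 in DAT against CTR and -0.13 and -0.18 in CX3 against CTR, but both tested more genes of low count: over the 20892 genes above it was 0.00 and -0.01, and 0.03 and 0.00. With library size alone, the part of all calls that were higher went from 45.9% to 58.9% in CX3 against CTR. In the same setting it went from 53.4% to 37.8% in DAT against CTR and from 53.2% to 33.3% in DAT against CX3. The share of counts on the 28 genes became 24.9, 22.9 and 14.3 ppm in CTR, CX3 and DAT in reverse-strand counts, and 24.6, 22.7 and 14.6 ppm in forward-strand counts. Per 1000000 protein-coding counts it was 27.4 ppm in CTR, and without Gm25047 it was 23.6, 22.7 and 13.7 ppm, with DAT lowest throughout. With 1 library left out it ranged from 25.8 to 26.7, 23.8 to 24.8 and 15.3 to 16.2 ppm.

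The letters A to C showed no sign of pairing the libraries. Libraries with the same letter correlated by -0.24 to 0.07 in their deviations from the group means, and those with different letters by -0.21 to 0.26. Of 18 comparisons, 7 were best with the own letter. With 3 libraries per group, this check cannot exclude a pairing. With the replicate block, 3 of the 28 genes fell and 0 rose in CX3 against CTR, 13 were lower and 2 higher in DAT against CTR, and 10 and 2 in DAT against CX3.

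Some log2 differences, none of which passed in either setting, changed sign. In CX3 against CTR, Gm25596 went from -0.31 to 0.16 and Snora17 from 0.52 to -0.095 in reverse-strand counts, and Gm23600 -0.22, Gm24060 -0.081, DQ267102 -0.15 and Snora31 -0.24 in forward-strand counts. With 1 library left out, the ranges crossed 0 for Gm24966 (-0.36 to 0.052), Gm23600 (-0.052 to 0.082), Scarna2 (-0.088 to 0.50), Gm24060 (-0.15 to 0.33), Snora31 (-0.023 to 0.28), Gm22573 (-0.10 to 0.29) and Gm24409 (-0.39 to 0.20). In DAT against CX3, Snord91a became -0.15 with library size alone and -0.10 in forward-strand counts, and Gm23119 became 0.027 with DESeq2 and 0.000334 with the replicate block. There the ranges with 1 library left out were -0.14 to 0.15 for Snord91a, -0.34 to 0.14 for Gm27343 and -0.27 to 0.33 for Gm23119.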
